A study of Mus musculus with 30 samples.

Results

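The 10 genes followed here in 2 tissues were the D-type cyclins Ccnd1, Ccnd2 and Ccnd3, the CDK inhibitors Cdkn1b and Cdkn1a, and the p53-regulated genes Mdm2, Phlda3, Ccng1, Btg2 and Sesn2. They were taken by symbol from the gene name column of the count tables, where all 10 of 10 were found among 54838 genes listed for kidney and 55487 listed for gastrocnemius. All 10 passed the filter on low counts in both tissues, where 17120 and 15419 genes were tested, and their lowest count in any library was 86 in kidney and 147 in gastrocnemius. The genes were chosen by name with the measured fold changes of the same comparisons already in view, that of Phlda3 in gastrocnemius under CHP among them. Adjusted p-values below therefore place each gene within the fit over all genes and are not independent support.

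D-type cyclins bind CDK4 and CDK6 and carry growth and nutrient signals to the retinoblastoma protein, whose phosphorylation lets E2F factors switch on the genes of DNA synthesis. Cdkn1b encodes p27 and Cdkn1a encodes p21, inhibitors that hold cyclin-CDK complexes in check in resting cells. The tumour suppressor p53 induces Cdkn1a and a wider group of genes after DNA damage and other stress, including Mdm2, the ubiquitin ligase that in turn degrades p53. Several of these genes answer other inputs as well. Sesn2 is a target of the stress factor ATF4 as well as of p53, and Btg2 is an immediate early gene. Kidney tubule cells and muscle fibres are mostly non-dividing in the adult.

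Male C57BL/6J wild-type mice were given a control diet (CD), a western diet (WD), or WD together with CHP, the cyclic dipeptide cyclo(His-Pro) (WD+CHP), to ask how CHP acts in mice that develop fatty liver disease. All mice were housed at thermoneutrality, 30 to 32 °C, from 6 weeks of age, and diets and dosing began in Week 7. CHP was given by oral gavage at 20 mg/kg, 3 times a week, and the CD and WD mice received water as the control treatment. Warm housing is shared by every group. The mice were euthanised in Week 24 after a 3 h fast. RNA was sequenced from 5 mice per group in each tissue, giving 15 kidney and 15 gastrocnemius libraries, and the labels do not say which kidney and which muscle came from the same mouse.

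Promoters were read first, because Cdkn1a, Mdm2 and Ccng1 are classical p53 targets. The RefSeq promoter table on GRCm38.p6 (mm10), with windows from 250 bases before to 50 after a start, held 8 of the 10 genes in 10 windows, and Ccnd1 and Ccnd2 were not in it. The p53 half-site, a 10 base motif searched on both strands, was found in 8.36% of 32851 windows. It was found in the window of the upstream Cdkn1a start and in the windows of Mdm2 and Ccng1. The window of the other Cdkn1a start held none. The matches are given here 5′ to 3′ on the strand of the gene with the matched bases in capitals.
Cdkn1a, chr17:29090892-29090951, plus strand: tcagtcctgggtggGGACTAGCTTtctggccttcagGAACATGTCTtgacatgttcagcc
Mdm2, chr10:117710925-117710954, minus strand: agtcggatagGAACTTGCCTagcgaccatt
Ccng1, chr11:40755452-40755481, minus strand: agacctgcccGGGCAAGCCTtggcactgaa
The matches began at -73 and -51 from the upstream start in Cdkn1a, at -186 in Mdm2 and at -185 in Ccng1. The windows of Phlda3, Btg2, Sesn2, Cdkn1b and Ccnd3 held no such match, and sequence outside the windows was not searched. The Phlda3 window held ACATGT, searched on both strands and present in 5.28% of windows, at position 44, and the Btg2 window held the cyclic AMP response element core TGACGTCA, present in 1.79% of windows, at -166. ACATGT also occurred at 2 places in a Cdkn1a window, one of which overlaps a half-site match. The Phlda3 and Btg2 stretches are shown because these had the largest log2 fold changes of the 6 p53-regulated genes in gastrocnemius, Phlda3 in WD+CHP against CD and Btg2 in WD against CD, where Btg2 did not pass the test.
Phlda3, chr1:135766105-135766134, plus strand: gcggcgcaggaggcgagcggtggaACATGT
Btg2, chr1:134079303-134079332, minus strand: gttcccaataaTGACGTCAgtgagcgatga

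Depth was even within each tissue, from 37189192 to 38211422 counts per kidney library and from 50319024 to 53282969 per gastrocnemius library. Mitochondrial genes took from 17.8% to 19.6% of the counts in CD kidney, 18.7% to 20.9% in WD and 18.9% to 21.1% in WD+CHP. In gastrocnemius the shares ran from 7.74% to 10.2% in CD, 9.09% to 10.5% in WD and 9.49% to 11.5% in WD+CHP. The part of this share in the differences below was not tested. All 10 of 10 proximal tubule markers were measurable in kidney and 1 of 10 in gastrocnemius, while all 12 of 12 fast muscle fibre markers were measurable in gastrocnemius and 5 of 12 in kidney. Levels are given as CPM, counts scaled by library totals after TMM adjustment, the scaling used in the main edgeR fits, and not by the plain totals. In bulk tissue, fewer cells of a type and less RNA per cell cannot be told apart.

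The 10 genes were present at very different levels, and the order of those levels differed between the tissues. Scaled to exon length as FPKM, the CD kidney was led by Ccng1, cyclin G1, at 58.6 ± 4.60 (SD, n = 5). Sesn2, a sestrin that restrains mTORC1, followed at 19.5 ± 3.58, Cdkn1b at 14.2 ± 0.579, Ccnd1 at 11.9 ± 0.232, Mdm2 at 9.15 ± 0.768 and Ccnd3 at 8.12 ± 0.367. Btg2, an antiproliferative cofactor, stood at 5.56 ± 0.299, Cdkn1a at 2.19 ± 0.361, Phlda3 at 1.79 ± 0.316 and Ccnd2 at 1.16 ± 0.109. In that order the libraries of Mdm2 and Ccnd3, and those of Cdkn1a and Phlda3, overlapped in FPKM. In CD gastrocnemius Ccng1 again stood highest at 276 ± 27.2 FPKM, but Phlda3, a PH domain protein that opposes AKT at the membrane, came next at 101 ± 14.1. Mdm2 stood at 11.2 ± 0.760 and Cdkn1b at 10.3 ± 0.585 FPKM, with overlapping libraries, as did Btg2 at 5.77 ± 1.41 and Cdkn1a at 5.26 ± 0.601. All 3 D cyclins lay low in gastrocnemius, Ccnd3 at 1.39 ± 0.0802, Ccnd1 at 1.20 ± 0.100 and Ccnd2 at 1.11 ± 0.0793 FPKM, and each overlapped the next, as Ccnd2 did Sesn2 at 0.950 ± 0.129.

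**Figure D1:**
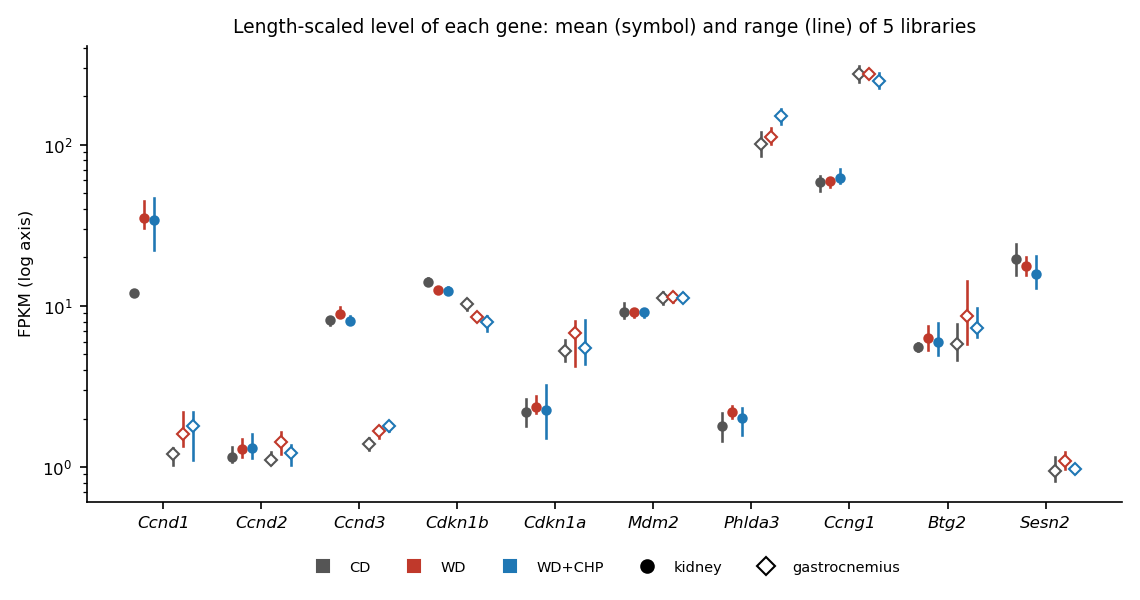
Length-scaled level (FPKM, log axis) of each of the 10 genes in kidney (filled circles) and gastrocnemius (open diamonds), with the mean as a symbol and the range of 5 libraries as a line for CD, WD and WD+CHP. Phlda3 and Ccng1 lie far higher in gastrocnemius and Sesn2, Ccnd1 and Ccnd3 far higher in kidney, in every group.

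The first comparison asked what the western diet did to these genes in kidney. Ccnd1, the D cyclin most closely tied to mitogen signals, rose 2.96-fold, and Cdkn1b fell slightly. In CPM the CD libraries of Ccnd1 read 57.0, 57.3, 56.8, 55.2 and 55.0, and the WD libraries 209, 176, 152, 150 and 144. Every WD kidney thus lay above every CD kidney. The log2 fold change was 1.56 (SE 0.164, adjusted p = 4.03e-05, edgeR), which ranked 14 by p among the genes tested. The 5 CD libraries varied by 1.94% (coefficient of variation), less than the 2.15% expected from counting alone, while the WD libraries varied by 16.2%. Cdkn1b was read at 62.1, 61.4, 64.8, 66.4 and 67.4 CPM in CD and at 57.3, 58.3, 54.5, 55.9 and 57.7 in WD. The groups did not overlap although the difference was small, at a log2 fold change of -0.18 (SE 0.0372, adjusted p = 0.00593, edgeR). These 2 of the 10 genes passed the threshold of 0.05 on the adjusted p, beside 9.65% of all genes tested. Summed adipocyte markers read from 199 to 256 CPM in CD kidney and from 169 to 181 in WD kidney, where 0 of 9 tested rose and 3 fell, and their part in these differences was not tested. Of 10 immune cell markers 0 passed by edgeR, with 5 at an unadjusted p under 0.05, beside 24.9% of all genes tested. Of 10 proximal tubule markers 2 rose and 2 fell, with a summed level of 33121 to 36572 CPM in CD and 29708 to 33212 in WD, and of 9 tested hepatocyte markers 2 rose and 2 fell, at 1810 to 2336 and 1567 to 2411 CPM. Summed fast muscle fibre markers read from 18.1 to 19.997 CPM in CD and from 22.9 to 29.5 in WD, without overlap, and 1 of 5 tested rose. The part of these markers was likewise not tested.

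The other D cyclins gave smaller values. Ccnd3 was read at 67.0, 74.3, 68.9, 71.8 and 74.1 CPM in CD kidney and at 86.4, 78.7, 75.9, 75.6 and 75.0 in WD kidney. The groups did not overlap, but the difference did not pass the test (log2 fold change 0.14, adjusted p = 0.0920, edgeR). Groups without overlap were found for 3 of the 10 genes and for 8.70% of all genes tested. Ccnd2 ranged from 10.1 to 12.5 CPM in CD and from 10.9 to 14.03 in WD, with a log2 fold change of 0.16 (adjusted p = 0.306, edgeR). Exons of Ccnd1 and Ccnd3 overlap those of LTO1 and Bysl on the opposite strand, and the strand setting of the counting is not given in the sources used here. LTO1, at 434 to 551 counts, differed by 0.11 on the log2 scale (adjusted p = 0.242) and Bysl, at 483 to 601 counts, by 0.13 (adjusted p = 0.122), both in the edgeR fit. A processed copy of Ccnd3, Ccnd3-ps, is annotated too, so the split of its reads is uncertain. In gastrocnemius Bysl, at 1416 to 1780 counts, stood above Ccnd3, at 585 to 874, and LTO1, at 424 to 575, beside Ccnd1, at 254 to 562, so that the overlap can weigh more there. Under WD in that tissue Bysl differed by 0.046 (adjusted p = 0.649) and LTO1 by 0.16 (adjusted p = 0.168) on the log2 scale by edgeR.

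**Figure D2:**
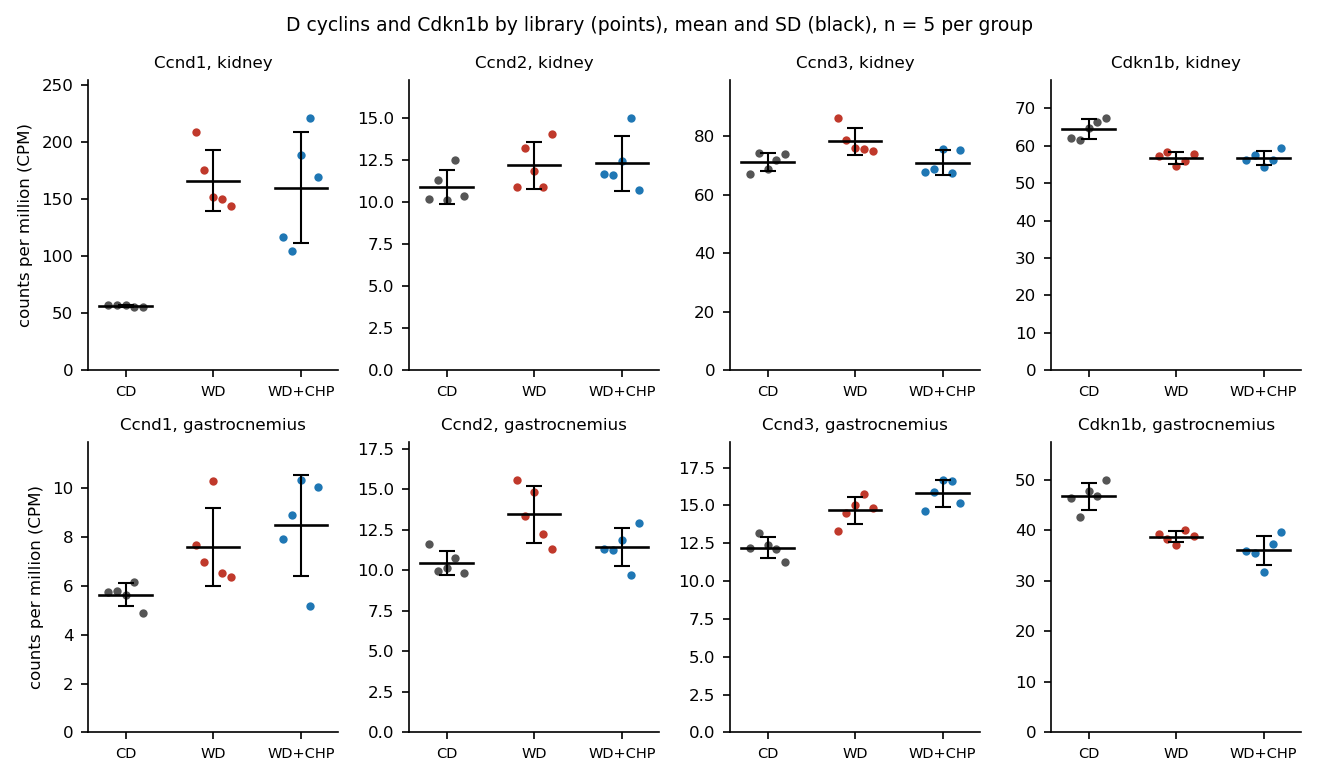
Level of Ccnd1, Ccnd2, Ccnd3 and Cdkn1b in CPM (axes from 0) by library in kidney (top) and gastrocnemius (bottom), with points for single libraries and the mean and SD of 5 libraries in black. All 5 WD kidneys lie above all 5 CD kidneys for Ccnd1, and Cdkn1b lies lower in WD than in CD in both tissues.

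Genes that act with or after the D cyclins were counted in kidney next. Of the list of CDKs, CDK inhibitors and RB-E2F genes, 17 of 18 were tested, and under WD 2 rose and 2 fell, with a median log2 fold change of 0.03 against 0.0015 for all genes. E2f1, the activating partner at S phase entry, rose by 0.61 (SE 0.139, adjusted p = 0.0115) and Cdk4, the kinase of D cyclins, by 0.12 (SE 0.0376, adjusted p = 0.0499) on the log2 scale. The pocket proteins Rbl1 (p107) and Rbl2 (p130), which repress E2F targets, changed by -0.30 (SE 0.0696, adjusted p = 0.0115) and -0.21 (SE 0.0497, adjusted p = 0.0159). Of 21 proliferation genes, all tested, 10 rose and 0 fell by edgeR, and the median was 0.43. An unadjusted p under 0.05 was found for 14, beside 24.9% of all genes tested. Mitotic cyclin Ccnb1 rose by 1.45 (SE 0.348, adjusted p = 0.0151) and its kinase Cdk1 by 1.34 (SE 0.302, adjusted p = 0.0106), both in the edgeR fit. Their levels stayed low, at means of 0.673 against 0.243 CPM for Ccnb1 and 0.963 against 0.379 CPM for Cdk1 in WD and CD.

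**Figure D3:**
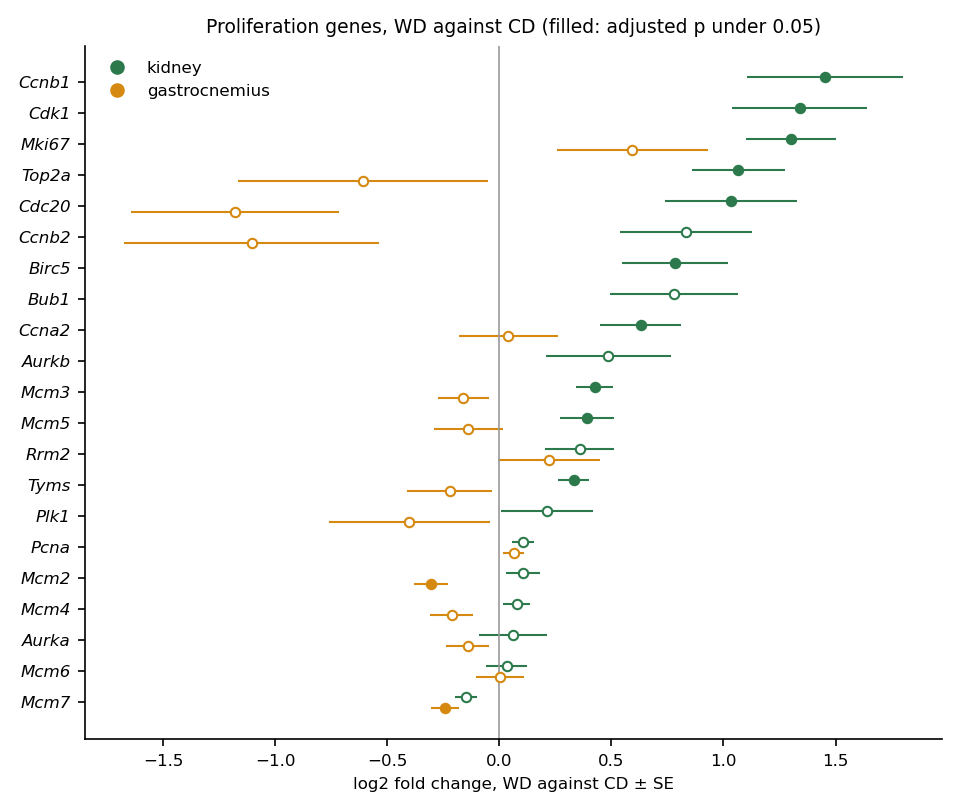
Log2 fold change (± SE) of 21 proliferation genes in WD against CD for kidney (green) and gastrocnemius (orange), with filled points where the adjusted p is under 0.05 and no orange point where a gene was not tested in gastrocnemius. In kidney 10 points are filled, all to the right of 0, and in gastrocnemius the 2 filled points, Mcm2 and Mcm7, lie to the left.

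None of the 6 p53-regulated genes passed the threshold in WD kidney. By edgeR the count was 0 of 6, beside 9.65% of all genes tested, a share at which 0 of 6 is no result about these genes, and DESeq2 and limma-voom likewise called none of them. Phlda3 was read at 2.25, 2.65, 3.40, 3.20 and 2.44 CPM in CD and at 3.14, 3.37, 3.49, 3.35 and 3.72 in WD, from 86 to 144 counts per library. The groups overlapped, and the log2 fold change was 0.29 (SE 0.123, adjusted p = 0.144, edgeR). Cdkn1a ranged from 6.41 to 9.36 CPM in CD and from 7.70 to 9.83 in WD (log2 fold change 0.11) and Btg2 from 14.3 to 16.2 and from 14.6 to 20.7 CPM (0.18, adjusted p = 0.323). Mdm2 had a mean of 46.5 ± 3.90 CPM in CD and 46.4 ± 1.84 in WD, and Ccng1 206 ± 16.1 and 209 ± 10.9 (SD, n = 5). Sesn2 varied by 18.4% among the CD kidneys and by 11.5% among the WD kidneys, with means of 67.7 and 61.1 CPM (adjusted p = 0.526, edgeR).

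Trp53, which encodes p53 itself, was lower in WD kidney, at a log2 fold change of -0.19 (SE 0.0479, adjusted p = 0.0179, edgeR) and means of 34.3 against 39.2 CPM. It was the 1 of 10 genes in the list of p53 and its regulators that passed. Of 27 other p53 targets, 0 rose and 1 fell by edgeR, with a median of -0.01. An unadjusted p under 0.05 was found for 9, beside 24.9% of all genes tested. The 1 that fell was Xpc, a DNA damage recognition factor, at -0.11 (SE 0.0343, adjusted p = 0.0463).

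WD+CHP was then compared with WD in kidney. By edgeR 0 of the 10 genes passed, beside 0.105% of all genes tested, a share at which 0 of 10 is no result about these genes, and DESeq2 and limma-voom also called 0. No gene of the 10 had WD and WD+CHP libraries without overlap, beside 2.36% of all genes. Ccnd3 was the 1 of 10 with an unadjusted p under 0.05, beside 11.4% of all genes. Its WD+CHP libraries read 67.9, 68.8, 75.7, 67.4 and 75.5 CPM, below or within the lower end of the WD range (log2 fold change -0.14, SE 0.0495, adjusted p = 0.287, edgeR). The Ccnd1 libraries of WD+CHP spread over 116, 105, 189, 221 and 170 CPM, from below all WD kidneys to above all of them, with a coefficient of variation of 30.6%. Their mean of 160 ± 49.1 CPM lay beside 166 ± 27.0 in WD (log2 fold change -0.05, SE 0.159, adjusted p = 0.940, edgeR). Of the lists of related genes, 1 gene passed in this comparison, the DNA damage kinase Atr, at 0.30 (SE 0.0506, adjusted p = 0.0271, edgeR).

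The comparison of WD+CHP with CD in kidney shares its CD libraries with WD against CD and its WD+CHP libraries with WD+CHP against WD. It gave calls for Ccnd1 and Cdkn1b, 2 of 10 beside 12.1% of all genes tested. Ccnd1 differed by 1.51 (SE 0.164, adjusted p = 0.000121) and Cdkn1b by -0.18 (SE 0.0372, adjusted p = 0.00536) on the log2 scale in the edgeR fit, and neither gene's groups overlapped, as for 8.34% of all genes. Summed fast muscle fibre markers read from 22.7 to 28.9 CPM in WD+CHP, above all CD kidneys, with 1 of 5 tested higher, and adipocyte markers from 156 to 199 CPM, with 2 of 9 tested lower, and their part was not tested. Of 21 proliferation genes 8 rose and 1 fell, with a median of 0.39. Ccnb1 rose by 1.72 (SE 0.342, adjusted p = 0.00503), Mki67, the marker of cycling cells, by 1.63 (SE 0.199, adjusted p = 0.000266), and Mcm7, a subunit of the replicative helicase, fell by 0.17 (adjusted p = 0.0398). Of 17 CDK, CDK inhibitor and RB-E2F genes 2 rose and 3 fell, with E2f1 at 0.61 (adjusted p = 0.0100), Cdk4 at 0.14 (adjusted p = 0.0274), Rbl1 at -0.36 (adjusted p = 0.00454) and Cdk2, a kinase of S phase entry, at -0.27 (adjusted p = 0.00322). Of p53 and its regulators, 10 genes, the DNA damage kinases Atm, at 0.42 (adjusted p = 0.00225), and Atr, at 0.17 (adjusted p = 0.0405), rose, and Trp53, at -0.26 (adjusted p = 0.00285), fell. Of 27 other p53 targets 1 rose and 2 fell, Pmaip1, which encodes the cell death protein NOXA, at 0.40 (adjusted p = 0.0366), and the DNA repair genes Ddb2, at -0.38 (adjusted p = 0.0354), and Xpc, at -0.12 (adjusted p = 0.0371), all by edgeR. Sesn2 had a log2 fold change of -0.31 and an adjusted p of 0.140, which became 0.0392 without WD+CHP replicate 5, the highest of its group.

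In gastrocnemius Ccnd2 and Ccnd3 rose under the western diet and Cdkn1b fell. By edgeR 3 of the 10 genes passed, beside 8.63% of all genes tested. Ccnd3, the D cyclin associated with muscle differentiation, was read at 12.2, 13.2, 12.4, 12.1 and 11.2 CPM in CD and at 13.3, 14.5, 15.02, 15.8 and 14.9 in WD. The groups just failed to overlap, and the log2 fold change was 0.27 (SE 0.0575, adjusted p = 0.00829, edgeR). Ccnd2 was read at 11.6, 9.95, 10.2, 10.7 and 9.83 CPM in CD and at 15.6, 13.3, 14.8, 12.2 and 11.3 in WD. One WD library lay below the highest CD library, and the log2 fold change was 0.36 (SE 0.0896, adjusted p = 0.0180, edgeR), with an adjusted p of 0.0518 without WD replicate 1. Cdkn1b was read at 46.3, 42.7, 47.9, 46.9 and 49.9 CPM in CD and at 39.3, 38.4, 37.1, 40.1 and 38.8 in WD, with no overlap and a log2 fold change of -0.27 (SE 0.0557, adjusted p = 0.00598, edgeR).

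Ccnd1 in gastrocnemius was low and variable. Its CD libraries read 5.73, 5.79, 5.63, 6.17 and 4.88 CPM and its WD libraries 7.68, 6.99, 10.3, 6.54 and 6.37. The groups did not overlap, but the difference did not pass (log2 fold change 0.43, SE 0.163, adjusted p = 0.115, edgeR). Groups without overlap were found for 3 of the 10 genes, Ccnd1, Ccnd3 and Cdkn1b, and for 7.84% of all genes tested.

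Fat markers moved with the groups in this muscle. The summed level of 12 adipocyte markers ran from 681 to 816 CPM in CD, from 804 to 956 in WD and from 690 to 925 in WD+CHP, and 6 of the 12 rose and 1 fell under WD by edgeR, with 0 of the 12 at 0 in all libraries. A score of their mean log2 CPM lay above 0 in all 5 WD libraries, from 0.43 to 0.55, and below 0 in all 5 CD libraries. With this score as a covariate no gene passed in WD against CD, 1376 genes had an unadjusted p under 0.05, and the log2 fold changes were 0.45 for Ccnd2 (adjusted p = 0.539), 0.12 for Ccnd3 (adjusted p = 0.779) and -0.18 for Cdkn1b (adjusted p = 0.687). Because the score separates the groups, adipocyte content and diet cannot be told apart here. Of the 1 proximal tubule and 8 immune cell markers tested in gastrocnemius, 0 passed under WD by edgeR. An unadjusted p under 0.05 was found for 0 and 3 of them, beside 23.7% of all genes tested. The muscle's own fibre markers ran lower, with a summed level of 222670 to 264329 CPM in CD and 198946 to 230836 in WD. Of these 12 markers 0 rose and 1 fell, the creatine kinase gene Ckm, with 7 at an unadjusted p under 0.05 and a median log2 fold change of -0.15. Of 5 tested hepatocyte markers 0 rose and 1 fell. The part of the fibre and hepatocyte markers in the differences of the D cyclins and Cdkn1b was not tested.

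The genes that act with or after the D cyclins were counted in gastrocnemius as well. Of 17 tested CDK, CDK inhibitor and RB-E2F genes 0 rose and 1 fell under WD: Cdkn1c, which encodes p57, the inhibitor related to p21 and p27, at -0.55 (SE 0.0778, adjusted p = 0.000415, edgeR). Of 16 tested proliferation genes 4 had an unadjusted p under 0.05, beside 23.7% of all genes tested, and the median was -0.19. By edgeR 0 rose and 2 fell. They were the helicase subunits Mcm2, at -0.30 (SE 0.0764, adjusted p = 0.0196), and Mcm7, at -0.24 (SE 0.0626, adjusted p = 0.0222).

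Among the p53-regulated genes of WD gastrocnemius, 0 of 6 passed by edgeR, DESeq2 and limma-voom, beside 8.63% of all genes tested by edgeR, a share at which 0 of 6 is no result about these genes. Btg2 was the most variable: its CD libraries read 18.7, 13.4, 12.6, 13.3 and 21.2 CPM and its WD libraries 15.9, 19.1, 23.3, 21.7 and 39.0. The groups overlapped, and the log2 fold change of 0.59 (SE 0.210, adjusted p = 0.0929, edgeR) became 0.34 without WD replicate 5. Cdkn1a was read at 18.2, 19.3, 17.8, 16.2 and 22.0 CPM in CD and at 20.5, 27.6, 14.99, 28.7 and 28.1 in WD, with 3 WD libraries above all of CD and 1 below all of CD (log2 fold change 0.36, adjusted p = 0.242). Mdm2 had means of 57.1 ± 3.87 and 57.4 ± 3.26 CPM in CD and WD, Ccng1 971 ± 95.6 and 958 ± 45.8, and Sesn2 3.30 ± 0.447 and 3.79 ± 0.339 (SD, n = 5). Of 23 tested other p53 targets 0 rose and 2 fell: Gadd45a, a stress sensor, at -0.49 (SE 0.143, adjusted p = 0.0413), and the translesion polymerase Polk at -0.34 (SE 0.0932, adjusted p = 0.0313). Ppm1d, the phosphatase that switches p53 signalling off, was the 1 of 10 regulators that passed, at -0.45 (SE 0.116, adjusted p = 0.0235).

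Phlda3 was the gene of the 10 that differed with CHP in gastrocnemius, and since it was known for this difference when the genes were chosen, its values are a description. The CD libraries read 160, 165, 138, 187 and 133 CPM, the WD libraries 177, 157, 199, 170 and 168, and the WD+CHP libraries 224, 228, 249, 211 and 258. All 5 WD+CHP libraries lay above all WD and all CD libraries, as is so for 2.83% of all genes in one direction or the other against WD, and the WD and CD libraries overlapped. The mean level was 1.34-fold that of WD, a log2 fold change of 0.43 (SE 0.0886, adjusted p = 0.0452, edgeR), just under the threshold. By edgeR 1 of the 10 genes passed in this comparison, beside 0.409% of all genes tested, a count that the choice of the genes used and from which nothing is read. Phlda3 lost its call in 9 of the 10 fits that left out 1 library, with log2 fold changes from 0.39 to 0.48 and adjusted p-values from 0.0411 to 0.153, and kept it without WD replicate 3. The call was kept by DESeq2 (adjusted p = 0.00116) and limma-voom (adjusted p = 0.0405), with DESeq2's size factors, with at least 10 counts in every library and with only the 2 groups compared (adjusted p = 0.0240). It ended with total count scaling (log2 fold change 0.38, adjusted p = 0.0852), with no filter (0.44, adjusted p = 0.0515), with the replicate block (0.43, adjusted p = 0.100), with the length and GC offset (0.34, adjusted p = 0.148) and with the adipocyte score as a covariate (log2 fold change 0.30, adjusted p = 0.575). That score ran from 0.43 to 0.55 in WD and from -0.43 to 0.23 in WD+CHP, without overlap, so that adipocyte content and CHP cannot be told apart here.

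The other genes did not pass in WD+CHP against WD in gastrocnemius. Ccnd2 was read at 11.3, 11.3, 11.9, 9.69 and 12.9 CPM in WD+CHP, mostly below its WD libraries, with a log2 fold change of -0.24 (SE 0.0893, adjusted p = 0.278, edgeR). Cdkn1a read 19.0, 15.5, 15.4, 29.1 and 18.7 CPM and Btg2 19.2, 18.2, 26.7, 17.6 and 18.2, each with 1 library far above its group. Ccng1 ranged from 789 to 974 CPM, within and below the 911 to 1019 of WD (log2 fold change -0.14, adjusted p = 0.455). Of the 6 lists of related genes none held a call by edgeR. They held 0 to 4 genes each at an unadjusted p under 0.05, beside 12.5% of all genes tested. Of the adipocyte markers 4 fell, among them Adipoq at -1.15 (SE 0.170, adjusted p = 0.00671). Summed hepatocyte markers read up to 83.3 CPM in CD, up to 80.8 in WD and at most 5.38 in WD+CHP gastrocnemius, and their part in any difference was not tested.

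Set against CD, WD+CHP gastrocnemius gave 4 calls among the 10 genes, beside 9.40% of all genes tested. Phlda3 differed by 0.58 (SE 0.0888, adjusted p = 0.00110), Ccnd3 by 0.37 (SE 0.0574, adjusted p = 0.00117), Cdkn1b by -0.37 (SE 0.0558, adjusted p = 0.000933) and Ccnd1 by 0.59 (SE 0.162, adjusted p = 0.0313) on the log2 scale in the edgeR fit. The WD+CHP libraries of Ccnd3 read 14.7, 15.9, 16.7, 16.6 and 15.1 CPM, all above CD, and those of Cdkn1b 36.0, 35.5, 31.8, 37.4 and 39.6, all below CD. These genes and Phlda3 were the 3 of 10 without overlap, as were 8.75% of all genes. Ccnd1 read 7.92, 8.90, 10.3, 5.18 and 10.0 CPM, with 1 library inside the CD range, and lost its call in 6 of 10 fits that left out 1 library, with adjusted p-values up to 0.0914 without WD+CHP replicate 3. The 3 others kept their calls in all such fits, and also with the adipocyte score as a covariate. By edgeR 3 of 12 adipocyte markers rose and 1 fell, 1 of 5 tested hepatocyte markers fell, and 0 of 12 fast muscle fibre markers passed. Summed fibre markers read from 203943 to 237812 CPM in WD+CHP and from 222670 to 264329 in CD. The part of these markers was not tested. Of 23 other p53 targets 1 rose and 4 fell: the nuclease gene Aen by 0.12 (SE 0.0357, adjusted p = 0.0490), against Sesn1, the sestrin related to Sesn2, at -0.54 (SE 0.151, adjusted p = 0.0332) and Gadd45a at -0.53 (SE 0.143, adjusted p = 0.0278) as the largest falls. Of the 10 genes of p53 and its regulators 0 rose and 2 fell, Ppm1d at -0.49 (adjusted p = 0.0156) and Atm at -0.29 (adjusted p = 0.0314). The 1 call among 17 CDK, CDK inhibitor and RB-E2F genes was Cdkn1c, at -0.59 (adjusted p = 0.000405), and the 1 among 16 proliferation genes was Mcm7, at -0.22 (adjusted p = 0.0347), both by edgeR.

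**Figure D4:**
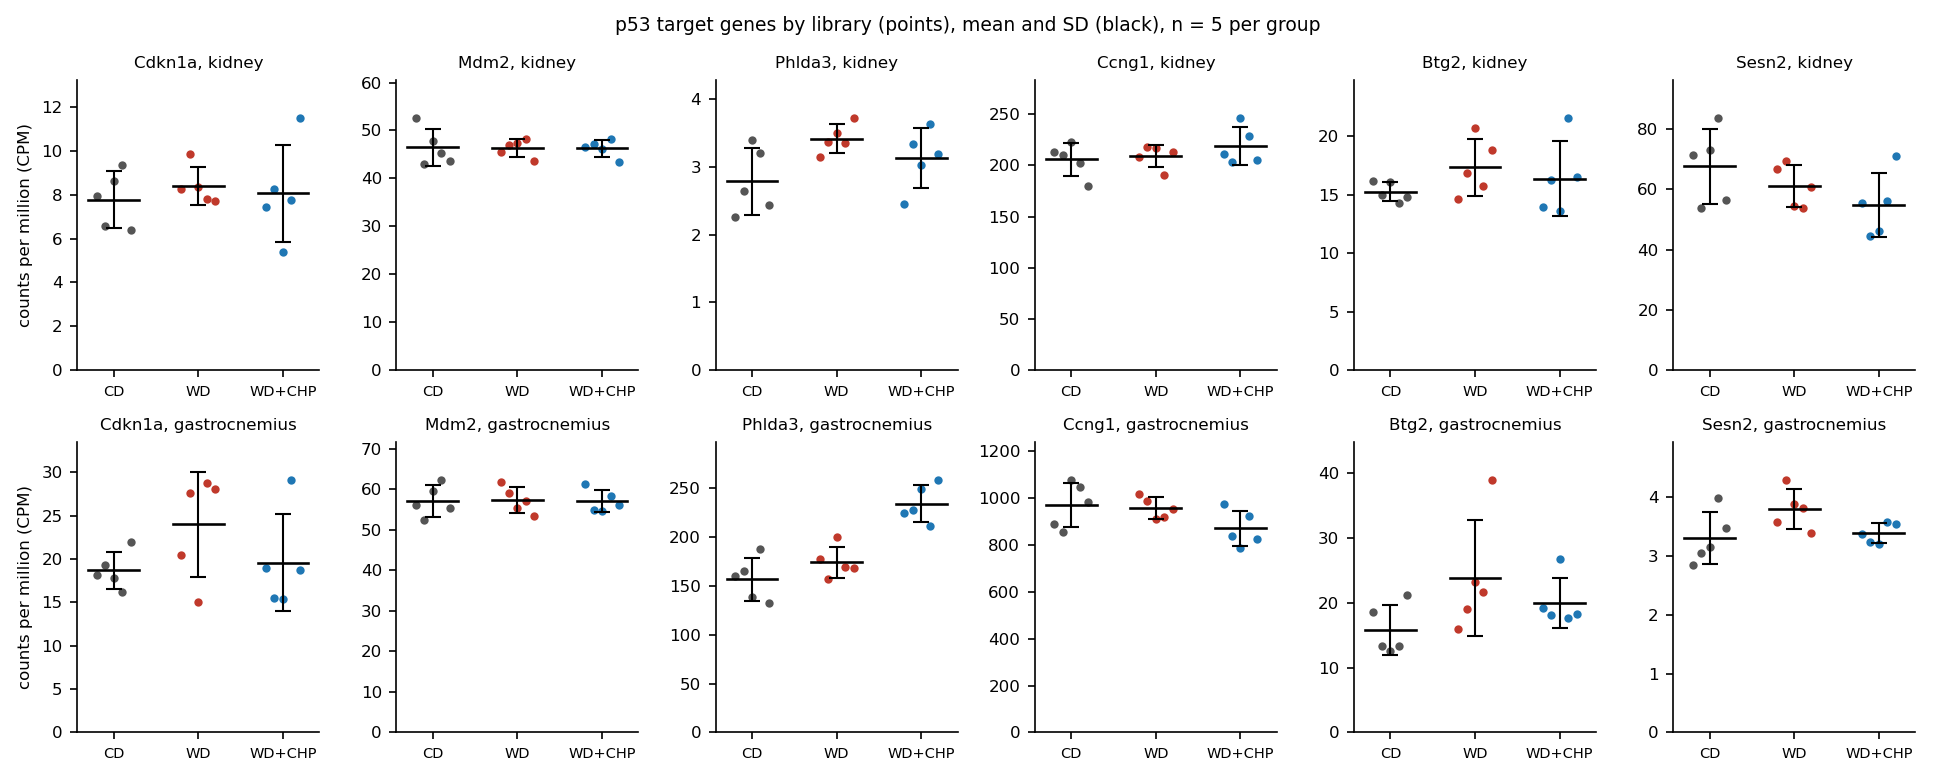
Level of Cdkn1a, Mdm2, Phlda3, Ccng1, Btg2 and Sesn2 in CPM (axes from 0) by library in kidney (top) and gastrocnemius (bottom), with points for single libraries and the mean and SD of 5 libraries in black. Phlda3 in gastrocnemius is the panel where the 5 WD+CHP libraries, from 211 to 258, lie above the rest, and Mdm2 shows nearly equal means in every group.

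Whether the tissues differed in their response was tested in 1 fit over all 30 libraries, which treats kidney and gastrocnemius libraries as independent. Should they come from the same mice, which the labels do not say, its SEs and p-values do not take that into account. For WD against CD, 1 of the 10 genes differed between the tissues, beside 4.13% of 18708 genes tested. Ccnd1 changed less in gastrocnemius, by -1.14 on the log2 scale relative to kidney (SE 0.248, adjusted p = 0.00596, edgeR). Its difference passed in all 20 fits that left out 1 library. Cdkn1b, lower under WD in both tissues, gave a tissue difference of -0.09 (SE 0.0642, adjusted p = 0.534), and the calls of Ccnd2 and Ccnd3 in gastrocnemius alone were not matched by a tissue difference (0.20, SE 0.136, adjusted p = 0.481, and 0.13, SE 0.0803, adjusted p = 0.433). All 21 proliferation genes entered this fit, although only 16 of them passed the filter in gastrocnemius. By edgeR 3 rose more, or fell less, in kidney and 0 the reverse. Named after their values were seen, they were Cdc20 at -2.20 (SE 0.562, adjusted p = 0.0219), Mcm3 at -0.58 (SE 0.140, adjusted p = 0.0141) and Mcm2 at -0.41 (SE 0.114, adjusted p = 0.0374). Because the filter admits genes through kidney alone, nothing is read from this count. In the other 5 lists, with 17, 10, 27, 11 and 14 genes tested, 4 genes differed by edgeR, a count near the 4.13% of all genes. Cdkn1c at -0.66 (adjusted p = 0.000736) and Sgk1 at -0.88 (adjusted p = 0.0373) rose more, or fell less, in kidney. Psat1 at 0.94 (adjusted p = 0.00983) and Pdk4 at 1.34 (adjusted p = 0.00887) went the other way.

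For WD+CHP against WD, 0 of the 10 genes differed between the tissues by edgeR, beside 0.347% of all genes. Phlda3 and Ccnd3, 2 of 10 beside 11.8% of all genes, had an unadjusted p under 0.05, at 0.00117 and 0.00362, with tissue differences of 0.56 (SE 0.156, adjusted p = 0.114) and 0.25 (SE 0.0799, adjusted p = 0.163). DESeq2 called 291 of 18708 genes, 1 of the 10 among them, Phlda3, at an adjusted p of 0.0249, a gene chosen with its difference under CHP known. Ccnd3 thus read lower under CHP in kidney and higher in gastrocnemius, with neither passing the test.

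**Figure D5:**
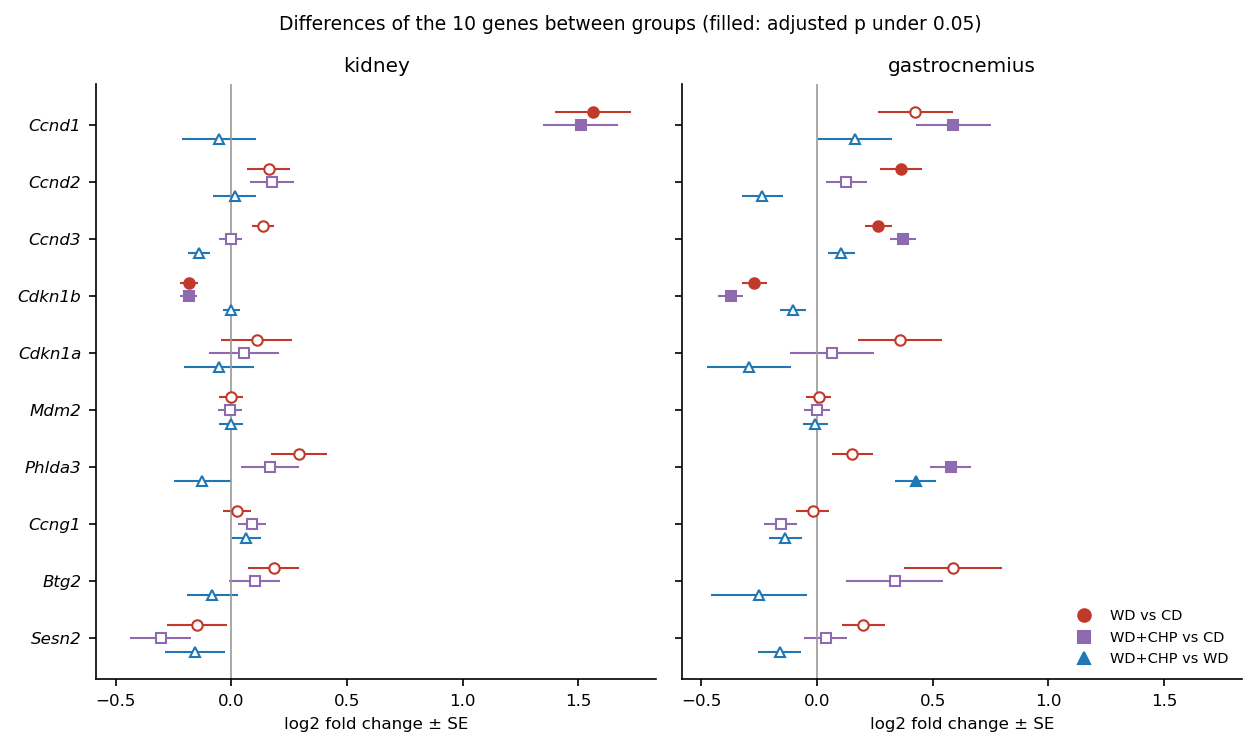
Log2 fold change (± SE) of the 10 genes for WD against CD (circles), WD+CHP against CD (squares) and WD+CHP against WD (triangles) in kidney and gastrocnemius, with filled symbols where the adjusted p is under 0.05. Ccnd1 in kidney lies apart at 1.56 and 1.51, Cdkn1b lies left of 0 in both tissues in the comparisons against CD, and Mdm2 lies within 0.01 of 0 throughout.

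Inputs other than p53 that are known for these genes were counted as well. Of 14 glucocorticoid and FOXO targets, the FOXO factors being known inducers of Cdkn1b, 3 rose and 3 fell in WD kidney. The kinase gene Sgk1 changed by 0.99 (SE 0.156, adjusted p = 0.00115) and the glucocorticoid-induced chaperone gene Fkbp5 by 0.37 (SE 0.104, adjusted p = 0.0323), against Pdk4, the brake on pyruvate oxidation, at -2.10 (SE 0.253, adjusted p = 0.000157) and the insulin receptor substrate gene Irs2 at -1.50 (SE 0.295, adjusted p = 0.00483). In WD gastrocnemius 1 of the 14 rose and 3 fell, with Pik3r1 at 0.41 (SE 0.115, adjusted p = 0.0342), Pdk4 at -0.76 (SE 0.147, adjusted p = 0.00413) and Txnip, an inhibitor of thioredoxin and glucose uptake, at -0.71 (SE 0.0685, adjusted p = 2.55e-05). Of 11 tested ATF4 targets 1 rose in WD kidney, Ddit3, at 0.46 (SE 0.125, adjusted p = 0.0292). In WD gastrocnemius 2 rose and 1 fell: the serine synthesis genes Psat1, at 0.87 (SE 0.158, adjusted p = 0.00250), and Phgdh, at 0.71 (SE 0.128, adjusted p = 0.00238), and the glutathione-degrading enzyme gene Chac1, at -1.16 (SE 0.346, adjusted p = 0.0468), all by edgeR. In WD+CHP against CD 3 of the 14 glucocorticoid and FOXO targets rose and 3 fell in kidney, with Sgk1 at 0.64 (adjusted p = 0.0143), Fkbp5 at 0.46 (adjusted p = 0.00962), Pdk4 at -1.53 (adjusted p = 0.00136) and Irs2 at -1.27 (adjusted p = 0.0107), and 3 fell in gastrocnemius, led by Txnip at -0.74 (adjusted p = 2.20e-05) and Pdk4 at -0.58 (adjusted p = 0.0198). Of 11 ATF4 targets Vldlr, the very low density lipoprotein receptor gene, was the 1 call in kidney by edgeR, at 0.28 (adjusted p = 0.00516). Gastrocnemius gave 0 by edgeR, with 2 at an unadjusted p under 0.05, beside 25.2% of all genes tested.

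The genes whose levels ran most like those of 3 of the members were found by Pearson's r of log2 CPM over 15 libraries, among 12406 genes in kidney and 10817 in gastrocnemius. These values are descriptive, and the libraries share groups and normalisation. In kidney Ccnd1 was followed most closely by Prkag3 (0.96), Isoc2a (0.96) and Galnt3 (0.96), which fell to 0.76, 0.65 and 0.70 once group means were removed. In gastrocnemius Phlda3 was followed by Kcna7 (0.95), Ndufa10 (0.93) and Atp5a1 (0.93), at 0.80, 0.76 and 0.71 within groups. Cdkn1a ran most like Irf2bpl in kidney (0.89, and 0.90 within groups) and Plekhb1 in gastrocnemius (0.93, and 0.92 within groups), so that its likeness lay among mice of the same group.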

How the data were processed

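Poly(A) RNA was sequenced from kidney and gastrocnemius of 5 mice per group, each library from 1 mouse as the labels describe it. Some labels name frozen liver as the source material, whereas the marker genes were those of kidney and muscle. The authors deposited raw counts per gene and library, 1 table per tissue. STAR 2.7.3a and GRCm38 (mm10) are named in the submitters' processing notes. The counting tool, the annotation and the strand setting are not given in the sources used here. No per-sample column was left unused.

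The 10 genes and the lists of related and marker genes were chosen with earlier results of these data known. Counts were tested with edgeR 4.0.16 (quasi-likelihood F test, two-sided) in R 4.3.3, with TMM scaling, 3 groups in 1 fit per tissue, filterByExpr with a minimum count of 10, and Benjamini-Hochberg adjustment over all genes kept, at 0.05. CPM was computed on TMM-scaled totals and FPKM on the union of exons in GENCODE M21. SEs are of the log2 fold change. Tissue differences were contrasts in a joint fit of 30 libraries. The p-values set each difference between groups against the spread among libraries of the same group. Genes outside the 10 were named by a rule: for each list and comparison, up to 2 called rises and 2 called falls of largest size. Genes named outside it, as for tissue differences and overlapping or marker genes, were chosen after their values were seen. Alternatives were DESeq2 1.42.0, limma-voom (limma 3.58.1), other scalings and filters, only the 2 groups compared, the replicate number as a block, an adipocyte score, and each library left out. An offset for transcript length and GC content was added after the data were seen. In counts simulated for WD against CD, edgeR called 87% of 100 genes changed by 0.5 on the log2 scale among 17120 kidney genes, and 74% of 100 among 15419 gastrocnemius genes. Libraries of 1 group differed by at least 9.10 times counting noise (chi-square per degree of freedom), so none was counted as a duplicate. Promoters came from RefSeq.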

Additional observations from a re-analysis of the deposited data

Results flagged for a closer look

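In gastrocnemius of WD+CHP mice, replicate 4 stood apart from its group in Cdkn1a, with its gap to the next library taking 0.739 of the whole range, at 29.1 CPM against 15.4 to 19.0 in the others. Replicate 3 of the same group stood apart in Btg2, with a ratio of 0.830, at 26.7 CPM against 17.6 to 19.2. These are different mice, and 60 groups of 5 were searched, in which chance alone marks about 1 in 20. The response of Ccnd1 to the western diet differed between the tissues, by -1.14 on the log2 scale in gastrocnemius relative to kidney. No cause was tested for any of these results.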

How the results depend on the processing

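Ccnd1 and Cdkn1b in WD kidney, Ccnd3 and Cdkn1b in gastrocnemius of WD+CHP against CD, and the tissue difference of Ccnd1 kept their direction and their calls under every alternative run. Phlda3 in gastrocnemius under CHP kept its direction, at log2 fold changes from 0.30 to 0.48, but not its call: the count of the 10 genes called went from 1 to 0 with total count scaling, with no filter, with the replicate block, with the adipocyte score, and with the length and GC offset with or without the block, and ran from 0 to 1 with 1 library left out. Ccnd1 in WD+CHP against CD gastrocnemius lost its call under limma-voom (adjusted p = 0.0543) and under the adipocyte score (adjusted p = 0.0777). Kidney Ccnd1 in WD+CHP against WD, close to 0, ran from -0.20 to 0.068 with 1 library left out.

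In kidney WD+CHP against WD, 18 calls became 168 by DESeq2, 37 with no filter, 70 with the replicate block, and 0 with only the 2 groups compared or with the length and GC offset. They ran from 0 to 97 with 1 library left out (0 in each fit lacking WD library 1, 4 or 5, or library 3 or 4 of WD+CHP, and 97 without WD replicate 2). In gastrocnemius 63 calls became 249 by DESeq2, 40 with no filter and 0 with the adipocyte score, and ran from 12 without WD+CHP replicate 5 to 92 without WD replicate 4. Calls against CD ran from 1202 without WD+CHP replicate 4 to 2150 in kidney, around 2070, and from 873 without WD+CHP replicate 3 to 1617 in gastrocnemius, where the adipocyte score left 737 of 1450. That score also took WD against CD in gastrocnemius from 1330 calls and 3 of the 10 genes to 0 and 0. The tissue difference under CHP, 65 calls, became 291 by DESeq2 with 1 of the 10 genes, and ran from 19 to 145, without gastrocnemius WD replicates 1 and 4. Total count scaling moved the share of higher calls from 54.1% to 81.3% in WD gastrocnemius, from 15.9% to 0% under CHP in gastrocnemius and from 51.7% to 26.7% in WD+CHP against CD kidney. The cause was not tested.

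Replicate numbers did not pair the samples (correlations of same-numbered libraries from -0.23 to 0.24). With the replicate block, kidney Ccnd1 in WD against CD was 1.57, and of the 10 genes only Phlda3 changed its call (adjusted p = 0.100). Of 1710 refitted values over 80 fold changes, 107 changed sign, 0 of them of a gene called before, and 1574 kept sign and call. Counts of 86 to 144 limit Phlda3 in kidney.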
